A study of Mus musculus with 2 samples.

Results

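The collagen genes of ATDC5 cells are described here on the CHX+PBS and the CHX+Nell-1 array. A gene was counted as a collagen if a probe set with 1 gene symbol carried a symbol of the form Col, number, a, number, and among its probe sets the one with the highest mean of both signals stood for it. This gave 42 collagen genes on 82 probe sets, out of 18193 genes on the array, and 15 of the 42 had a single probe set. ATDC5 is a mouse chondrogenic cell line. In both groups the cells were starved of serum and then given cycloheximide (CHX), which blocks protein synthesis, at 10 μg/ml for 30 min. The control then received PBS and the treated cells received recombinant human Nell-1, a secreted glycoprotein studied for bone and cartilage formation, at 100 ng/ml, each for another 30 min. The study asked which genes respond to Nell-1 directly, without a newly made protein in between. All cells carried the CHX block, so neither array shows the response with translation running.

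Collagens are secreted proteins whose chains wind around each other into a triple helix. Fibrillar collagens form the ropes of bone, skin, tendon and cartilage, and other classes decorate those fibrils, build basement membrane sheets, or sit in the cell membrane. Cartilage is known for fibrils of type II collagen with types IX and XI, and bone for type I. Collagen messages are long and stable in connective tissue cells, and their helix is modified and folded inside the cell before secretion.

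Each group has 1 array, so no ratio below carries an error between cultures and no test was run. Values are MAS5 signals, linear intensities per probe set, which Affymetrix software scales to a common mean on each array. Every difference is the log2 of the signal with Nell-1 divided by the signal with PBS, so that negative values mean a lower signal with Nell-1, and 1.5-fold is the threshold the submitters state for their own filter. Signals of different probe sets depend on their probes and are not compared with each other. The median of the mean signal over all probe sets, 64.3, was used as a filter in place of detection calls, which were not used here. As a yardstick, the robust SD of the log2 ratio over all probe sets of similar signal was 0.21 among the brightest probe sets (signals over 1708), 0.43 between signals of 121 and 282, 0.62 just above the filter, where it exceeds 1.5-fold (0.585 on this scale), and 2.23 between 13.2 and 23.8. It mixes measurement noise with real differences. Array controls also differed: all 24 poly-A spike-in probe sets gave a lower signal after Nell-1 (median log2 ratio -0.49), and their part in the collagen ratios was not tested. The 3' over 5' signal ratio, a measure of RNA integrity, was 1.32 and 1.28 for actin and 0.848 and 0.858 for Gapdh on the CHX+PBS and CHX+Nell-1 arrays.

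The collagens with a mean signal of 200 or more all stayed within 1.5-fold between the arrays, and most of their differences pointed to a lower signal with Nell-1. Their median absolute log2 ratio was 0.225, against 0.189 over all genes in this range, so they did not differ less than other genes. Of the 42 genes, 27 had a mean signal at or above the median and 15 were below it. Among the 27, 1 was at least 1.5-fold higher (3.70%) and 3 were at least 1.5-fold lower (11.1%), against 4.56% higher and 7.53% lower over all 11600 genes at or above the median signal. These shares are close to the background and are not a result about collagens. The 4 were Col22a1, Col5a3, Col23a1 and Col25a1, all with mean signals under 200, where 32.5% of genes passed 1.5-fold in either direction. None of the 18 collagens with a mean signal of 200 or more passed, against 2.92% higher and 3.25% lower of 8993 such genes. Signals lower with Nell-1 were found for 20 of the 27 (74.1%) and for 14 of the 18 (77.8%), against 54.2% and 52.5% of all genes in these ranges. The median log2 ratio of the 27 was -0.17, against -0.03 over all genes at or above the median signal.

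**Figure D1:**
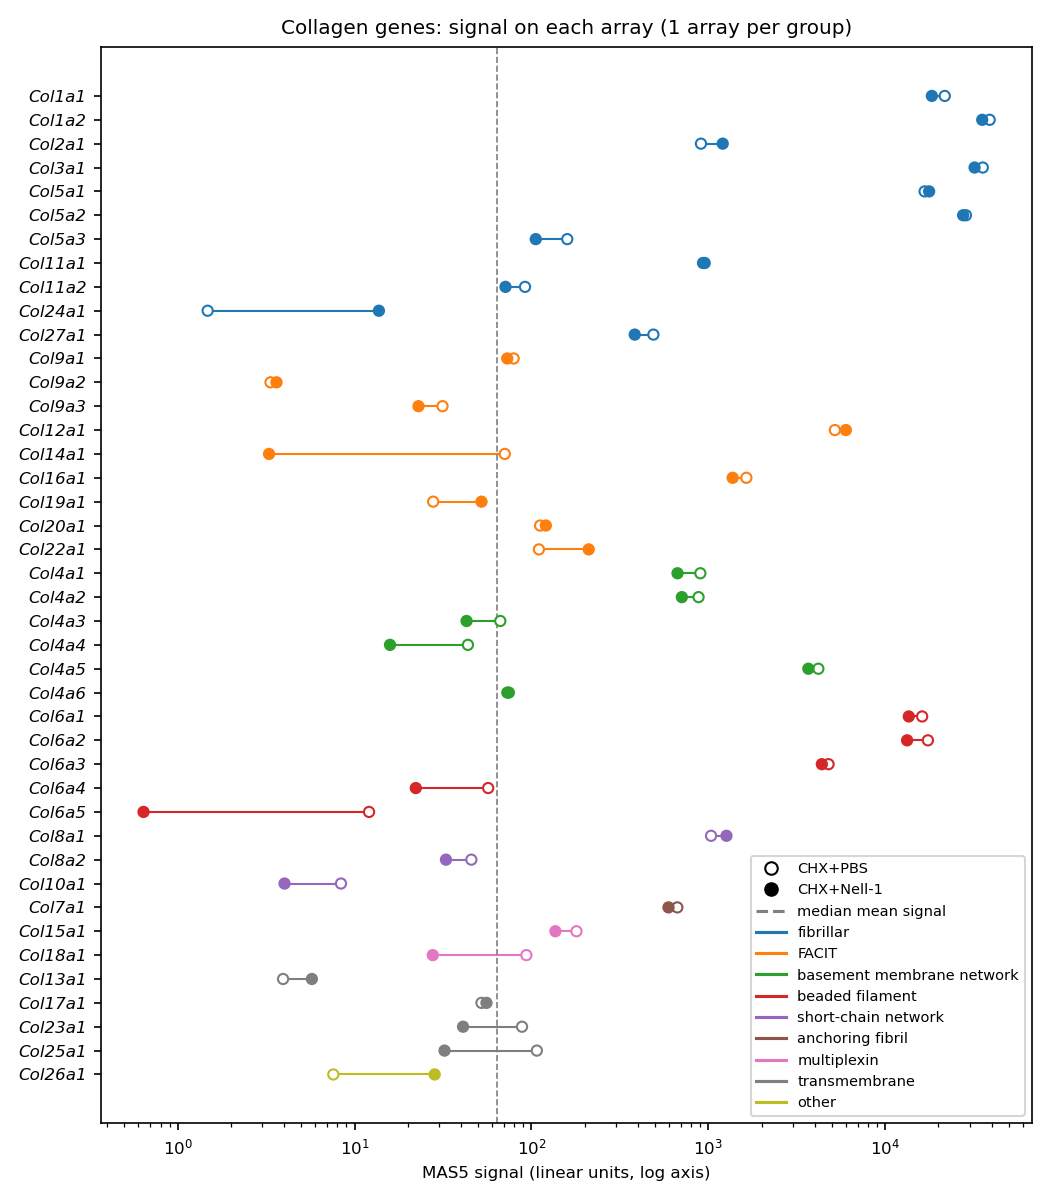
Signals of the 42 collagen genes on a log axis, with the CHX+PBS array as open circles, the CHX+Nell-1 array as filled circles and the structural class as colour, 1 array per group. The dashed line marks the median mean signal of 64.3, and long connecting lines are found near or to the left of it, as for Col14a1 (70.7 and 3.29).

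The fibrillar class held 11 measured genes, of which 10 were at or above the median signal. Col1a1 and Col1a2 encode the chains of type I collagen. Col1a1 went from 21720.2 on the CHX+PBS array to 18359 on the CHX+Nell-1 array, at -0.24 on the log2 scale, and its other probe set gave 20584 and 16977, at -0.28. Col1a2 measured 38979 and 35363, at -0.14, and its second probe set gave 36741 and 32659, at -0.17. A further Col1a2 probe set with low signals, 196 and 239.6, pointed the other way at 0.29. Both chains were thus lower with Nell-1 on their 2 brightest probe sets, by 1.10-fold to 1.18-fold on the brightest. Col3a1, encoding type III collagen of soft connective tissue, measured 35626 and 32019, at -0.15, and 5728 and 4659, at -0.30, on its second probe set. In bulk RNA, fewer cells with a transcript and less of it per cell cannot be told apart, and this holds for every value here.

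The starts of Col1a2 and Col3a1 are shown because these genes had nearly equal log2 ratios on their brightest probe sets, -0.14 and -0.15. Their second probe sets were less alike, at -0.17 and -0.30. The letters are the 250 bases before the annotated start in RefSeq (GRCm38.p6), 5′ to 3′ on the gene's strand, at chr6:4505368-4505617 on the plus strand for Col1a2 and chr1:45311288-45311537 on the plus strand for Col3a1. Capitals mark matches on either strand to CCAAT (the letters of the CCAAT box), to GGGCGG (those of the GC box) and to TATAAA (those of the TATA box).
Col1a2: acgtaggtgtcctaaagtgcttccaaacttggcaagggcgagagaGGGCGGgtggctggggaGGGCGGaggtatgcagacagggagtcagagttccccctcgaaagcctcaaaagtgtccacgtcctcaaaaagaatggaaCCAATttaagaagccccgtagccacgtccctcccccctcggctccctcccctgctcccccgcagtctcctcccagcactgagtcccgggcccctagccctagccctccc
Col3a1: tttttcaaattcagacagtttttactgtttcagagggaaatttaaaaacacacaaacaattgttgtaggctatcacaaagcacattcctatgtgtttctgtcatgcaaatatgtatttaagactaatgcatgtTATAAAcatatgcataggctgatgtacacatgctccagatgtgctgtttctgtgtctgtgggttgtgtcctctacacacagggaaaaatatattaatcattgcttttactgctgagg
The Col1a2 stretch held 2 GGGCGG and 1 CCAAT and had a GC content of 62.0%. The Col3a1 stretch held 1 TATAAA and neither of the other motifs, with a GC content of 35.2%. Windows of this length were matched for 33 of the 42 collagen genes (36 windows). CCAAT was found in 36.1% of them against 33.8% of all 32851 windows, GGGCGG in 58.3% against 32.7%, and TATAAA in 13.9% against 12.4%. A match is a run of letters and not a shown binding site.

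The type V chains, minor partners that set the width of type I fibrils, differed even less on their bright probe sets. Col5a1 measured 16706 with PBS and 17716 with Nell-1, at 0.08. Its 2 other probe sets gave 3096 and 3249, at 0.07, and 600.1 and 522, at -0.20. Col5a2 measured 28612 and 27585, at -0.05, and its second probe set, with 10046 and 10475, was at 0.06. The sign of both genes depends on the probe set, and that of Col5a2 also turned positive with median centring (0.01) and quantile normalization (0.02). Col5a3, the third type V chain gene, measured 159 and 106 and was 1.51-fold lower, the gene nearest to the threshold. Of the genes at or above the median signal that missed it, Col4a1 came nearest, at 1.35-fold lower. Col5a3 did not reach 1.5-fold with median centring (-0.53), loess (-0.52), quantile normalization (-0.52) or a constant of 17.9 added to both signals (-0.52).

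Cartilage fibrillar collagens had small log2 ratios of both signs. Col2a1, encoding the main collagen of cartilage, gave 909 with PBS and 1206 after Nell-1 and so was 1.33-fold higher, on its 1 probe set. Its log2 ratio of 0.41 is the highest among the 18 collagens with a mean signal of 200 or more, and the robust SD at its signal was 0.28. Col11a1, a type XI chain that starts the thin cartilage fibril, measured 954 and 933, at -0.03, and 888 and 908, at 0.03, on its second probe set. Col11a2, another type XI chain gene, measured 92.0 and 71.3, at -0.37, where the robust SD was 0.62. Col27a1, encoding a fibrillar collagen of the growth plate, was lower on both probe sets, with 489 and 384, at -0.35, and 237 and 212, at -0.17. Col24a1, the fibrillar gene below the median signal, gave 1.48 and 13.7, at which signals a ratio is unstable.

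**Figure D2:**
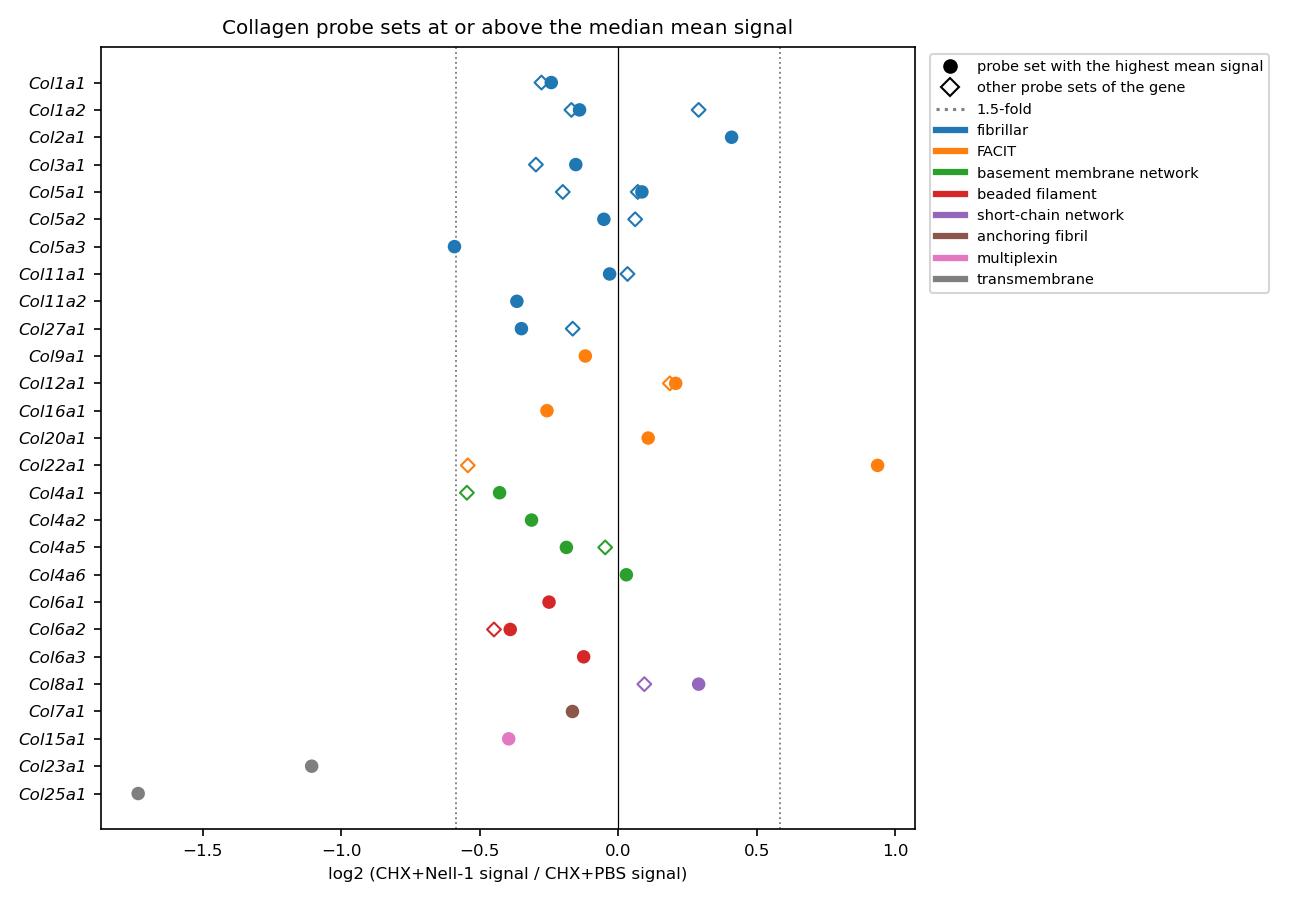
Log2 of the Nell-1 over the PBS signal for the 42 collagen probe sets at or above the median mean signal, by gene, with the representative probe set as a filled circle, other probe sets as open diamonds and dotted lines at 1.5-fold. Most points lie just left of 0, Col2a1 (0.41) and Col12a1 (0.21 and 0.19) lie right of it, and the probe sets of Col22a1 (0.94 and -0.54) lie on opposite sides.

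FACIT collagens, which coat fibrils and do not form them, held 9 measured genes with 5 at or above the median signal. Col12a1, abundant in dense connective tissue, measured 5194 with PBS and 5993 with Nell-1, at 0.21, and 475 and 539.7, at 0.19, on its second probe set. Its 2 probe sets at or above the median signal were both higher, while another below it, at 35.2 and 14.7, was not, at -1.26. Col16a1 measured 1641 and 1372, at -0.26. Col20a1, with 112 and 121, was at 0.11. Col22a1, known from muscle and tendon junctions, measured 110.2 and 211 and was 1.91-fold higher on its representative probe set. Its second probe set was lower, at 82.3 and 56.4 (-0.54), another below the median signal was at 45.1 and 34.4 (-0.39), and the mean over the 2 at or above the median signal was 0.20. The type IX genes, whose product lies on type II fibrils, were at the lower edge of measurement. Col9a1 gave 79.3 and 73.0 on one probe set (-0.12) and 24.4 and 93.4 on another (1.94), the latter below the median signal. Col9a2 (3.35 and 3.62) and Col9a3 (31.4 and 23.0) were below the median signal on both arrays. Col14a1 and Col19a1 also had mean signals below it.

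Network collagens of the basement membrane, the sheet under epithelia and around muscle and fat cells, were lower for 3 of the 4 genes at or above the median signal. Col4a1, whose product pairs with that of Col4a2 in nearly every basement membrane, gave 902 with PBS and 669.7 after Nell-1 (-0.43, or 1.35-fold lower) and 508 and 348, at -0.55, on its second probe set. Col4a2 measured 881 and 709, 1.24-fold lower at -0.31. The log2 ratios of the pair lay 0.12 apart, and neither reached 1.5-fold. The robust SD at their signal was 0.28. Col4a5, encoding a chain of kidney and other specialised basement membranes, was at -0.19 (4189.7 and 3678) and at -0.05 on its second probe set (1093 and 1057). Col4a6 gave 73.1 and 74.5, at 0.03. Col4a3 (66.7 and 43.0) and Col4a4 (43.7 and 15.9) had mean signals below the median.

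Type VI collagen forms beaded filaments around cells, including the pericellular matrix of chondrocytes, and its 3 main chains were all lower with Nell-1. Col6a1 measured 16178 with PBS and 13598.5 with Nell-1, at -0.25. Col6a2 measured 17439 and 13302, 1.31-fold lower at -0.39, and 8967 and 6567, at -0.45, on its second probe set. Col6a3 measured 4782 and 4384, at -0.13. The robust SD at these signals was 0.21, so Col6a2 lay furthest outside it and Col6a3 lay inside. Col6a4 (56.9 and 22.2) and Col6a5 (12.1 and 0.641) were below the median signal on both arrays. The stretches before Col6a1 and Col6a2 are shown because their products join in 1 molecule and both signals were lower. They are 250 bases each from RefSeq (GRCm38.p6) on the minus strand, at chr10:76726045-76726294 for Col6a1 and, before the more upstream of 2 annotated starts, chr10:76623631-76623880 for Col6a2, with the same motifs in capitals.
Col6a1: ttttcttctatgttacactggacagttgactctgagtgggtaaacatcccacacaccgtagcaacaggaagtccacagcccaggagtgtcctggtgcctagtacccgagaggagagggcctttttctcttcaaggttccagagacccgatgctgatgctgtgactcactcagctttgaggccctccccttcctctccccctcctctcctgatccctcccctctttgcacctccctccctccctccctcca
Col6a2: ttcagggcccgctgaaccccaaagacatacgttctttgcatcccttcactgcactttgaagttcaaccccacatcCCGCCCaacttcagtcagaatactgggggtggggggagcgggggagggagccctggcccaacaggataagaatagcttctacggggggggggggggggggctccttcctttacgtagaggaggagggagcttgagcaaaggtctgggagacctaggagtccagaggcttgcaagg
Col6a1 had none of the 3 motifs in this stretch, and Col6a2 had 1 GGGCGG on the opposite strand.

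The remaining classes were small. Among short-chain network collagens, Col8a1, a gene of blood vessel and corneal matrix, was higher on 2 probe sets, with 1036 and 1267 at 0.29 and 793 and 846 at 0.09. A further probe set, below the median signal, gave 29.2 and 54.1. Col10a1, the marker of hypertrophic chondrocytes, gave 8.38 and 4.02 and so was far below the median signal on both arrays. Col8a2 (45.8 and 32.9) was below it as well. Col7a1, encoding the anchoring fibril collagen of skin, measured 668 and 596, at -0.17. Col15a1, which lies beside basement membranes, measured 179.8 and 137, at -0.40. Col18a1, the source of endostatin, gave 93.6 and 27.7 on one probe set and 14.5 and 33.8 on the other, both with means below the median signal and with opposite signs.

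Transmembrane collagens gave 2 of the 3 genes at least 1.5-fold lower. Col23a1 gave 88.5 with PBS and 41.1 after Nell-1 and was 2.15-fold lower. Its other probe sets, below the median signal, gave 37.4 and 33.8 (-0.15), and 2.21 and 3.36 (0.60). Col25a1, known from motor nerve and muscle contacts, measured 107 and 32.3, 3.33-fold lower. Both passed the median signal only through the CHX+PBS array, so that a difference was built into their passing. Counting only genes at or above the median on both arrays, chosen after seeing the data, left 25 collagens with 1 lower, Col5a3, and 1 higher, Col22a1. The second Col25a1 probe set, with 4.29 and 13.6, went the other way. Col13a1 (3.94 and 5.74) and Col17a1 (52.2 and 55.7), a part of hemidesmosomes, were below the median signal on both arrays.

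The 15 collagens below the median signal had 3 genes at least 1.5-fold higher and 7 lower. Over all 6593 genes below the median signal the shares were 28.1% and 39.2%, so most genes in this range pass 1.5-fold. Log2 ratios of these collagens ran from -4.43 for Col14a1, a FACIT, to 3.22 for Col24a1. The other probe sets of Col14a1 gave 4.97 and 6.58, and 2.80 and 5.47, both with the opposite sign. Col26a1 (7.58 and 28.4) and Col19a1 (27.8 and 52.2) were the other genes at least 1.5-fold higher. For Col19a1 a further probe set gave 20.5 and 0.610.

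**Figure D3:**
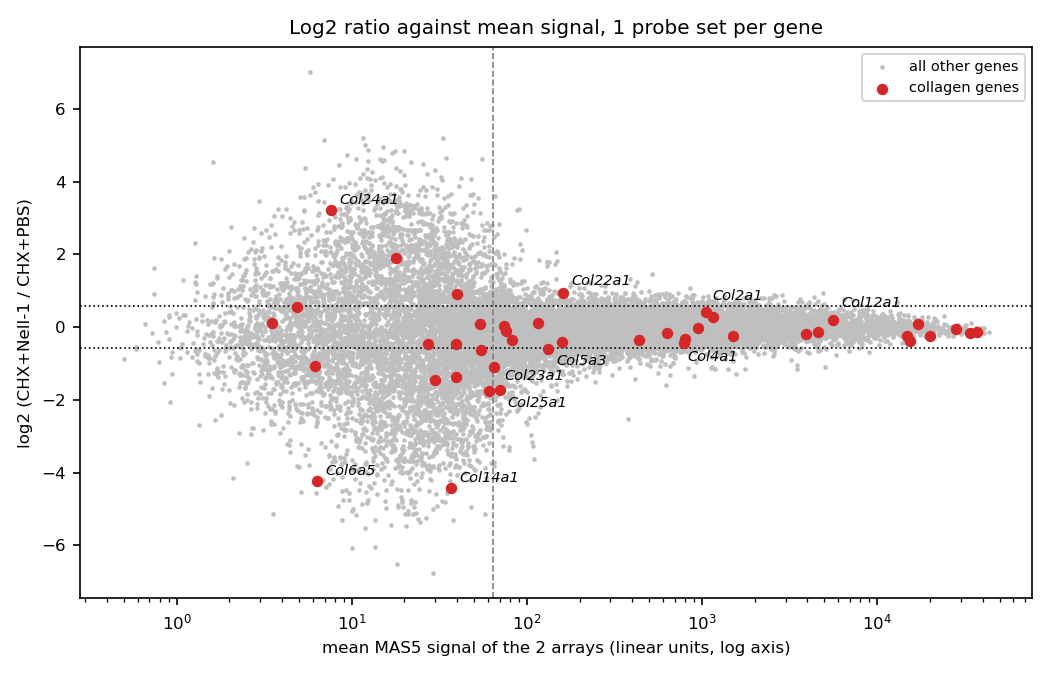
Log2 ratio against the mean signal of both arrays (log axis) for 1 probe set per gene, collagens in red and the other genes in grey, with dotted lines at 1.5-fold and a dashed line at the median signal. The cloud narrows to the right, and all 18 collagens with a mean signal of 200 or more lie between the dotted lines.

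Bright collagens were compared with other genes in the same signal range, where ratios are most precise. Of 13 collagens with a mean signal of 1000 or more, 9 were lower and 4 higher, the higher ones being Col2a1, Col5a1, Col8a1 and Col12a1. Their median log2 ratio was -0.14, while all 4478 genes in this range had a median of -0.00465 and 51.0% of them were below 0. None of the 13 passed 1.5-fold, against 1.7% higher and 1.27% lower of all genes in the range. At 10000 or more, 6 of 7 collagens were lower, with a median of -0.15, and 60.2% of 374 genes were lower, with a median of -0.04. The collagen median at 1000 or more was -0.08 with median centring, -0.13 with the loess trend removed and -0.06 with quantile normalization, and all genes in the range stood at 0.05, -0.01 and -0.01. The number lower was 8 with median centring and with quantile normalization.

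Probe sets of the same gene share an RNA sample and so check the probes, not the treatment. For 13 collagens with at least 2 probe sets at or above the median signal, the brightest pair had the same sign in 10, or 76.9%, against 68.6% of 5195 genes. The log2 ratios within a pair differed by a median of 0.11 for collagens and 0.20 for all such genes. These sets were not matched on signal, and the robust SD falls as the signal rises. The part of signal in both comparisons was not tested. The pairs with opposite signs were those of Col5a2, Col11a1 and Col22a1. Of 15 further collagen probe sets at or above the median signal, 9 were lower, none reached 1.5-fold and their median was -0.17. Chains that join in 1 protein lay 0.10 apart for type I (Col1a1 and Col1a2), 0.22 apart for Col4a5 and Col4a6, and 0.27 apart over the 3 type VI genes. They lay further apart for type V (0.68 over 3 genes), type XI (0.78 over Col11a1, Col11a2 and Col2a1, which gives its remaining chain), type VIII (0.77) and type IX (0.56 over 3 genes). At least 1 gene of each of these sets had a mean signal under 200, as did Col4a6 of the closer pair, at 73.8. Col8a2, Col9a2 and Col9a3 were below the median signal. The part of low signal, and of the number of genes in a set, in these distances was not tested. Col3a1 and Col5a2, neighbours in the mouse gene order, stood at -0.15 and -0.05.

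Genes that make, process and bind collagen were read from a list of 44, of which 39 were measured and 35 were at or above the median signal. Of the 35, 1 was at least 1.5-fold higher and 3 lower (2.86% and 8.57%), near the same background of 4.56% and 7.53%. Their median log2 ratio was -0.04, against -0.03 over all genes. Not analysed here were Fkbp10, Adamts2, Adamts14, Loxl2 and Itga11.

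Enzymes and chaperones that act inside the cell stayed within 1.5-fold wherever their signal was at or above the median. All 10 genes listed under proline hydroxylation were in this range, from -0.38 for P3h3 to 0.27 for P4ha2. P4hb, the shared subunit of prolyl 4-hydroxylase, measured 17789 with PBS and 16671 with Nell-1, and Ppib, which speeds proline turning in the helix, 15453 and 13971. In lysine modification, Plod3 (2209 and 2149.7) and Colgalt1 (2139.7 and 2037), which add hydroxyl groups and galactose, were at -0.04 and -0.07. The collagen chaperone gene Serpinh1 was at -0.08 (24389 and 22994) and Sparc, a collagen-binding matrix protein gene, at -0.13 (39633 and 36117). Fkbp7, a folding enzyme of the endoplasmic reticulum, gave 0.46 (5031 and 6905), the highest of the 8 chaperone and export genes.

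Outside the cell, Pcolce2, whose product enhances removal of the collagen propeptide, was 1.61-fold higher at 535 and 862, on 1 probe set. The related gene Pcolce was at -0.13 (35146 and 32048). Of the crosslinking oxidases, Lox was higher on 3 probe sets, with 13873 and 15128 at 0.13 on the brightest, and Loxl1 was lower on 2, with 5233 and 3687 at -0.51. Neither reached 1.5-fold. Mrc2, encoding a receptor that takes up collagen fragments, was 1.76-fold lower at 2285 and 1301, and its second probe set, with 178 and 111, was also past 1.5-fold at -0.68. Its mean signal is over 1000, where 1.27% of genes were at least 1.5-fold lower. The collagen-binding integrin genes Itga1 (144 and 83.4) and Itga10 (117 and 72.1), the latter a chondrocyte integrin, were 1.73-fold and 1.62-fold lower at low signals. Itga10 did not reach 1.5-fold with quantile normalization or with the constant of 17.9 added (-0.58 in both). The kinase receptors Ddr1 (5305 and 5229) and Ddr2 (600.3 and 669) were at -0.02 and 0.16.

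**Figure D4:**
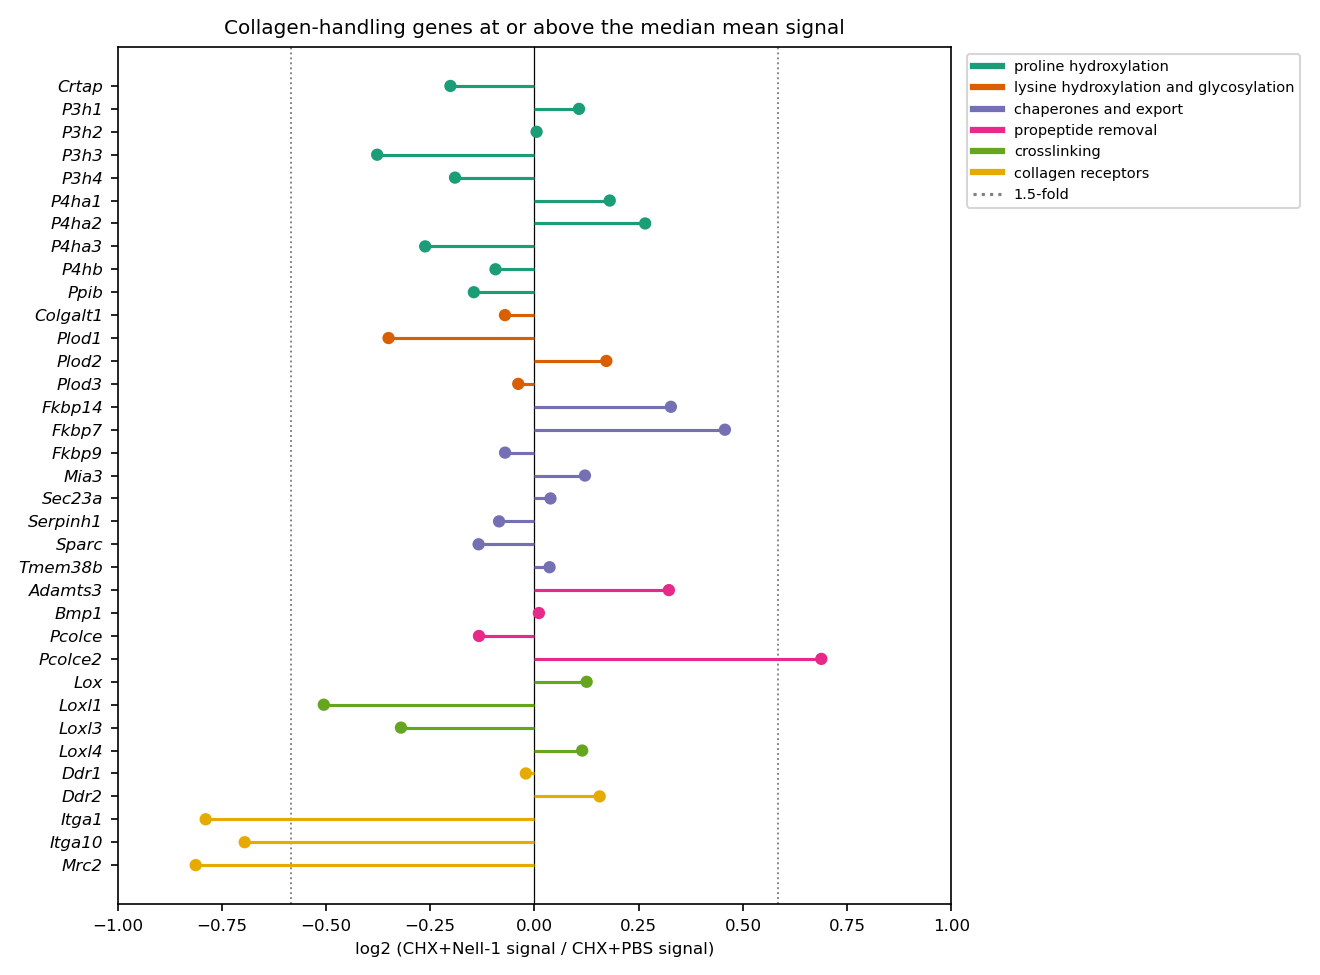
Log2 of the Nell-1 over the PBS signal for the 35 collagen-handling genes at or above the median signal, coloured by role, with dotted lines at 1.5-fold and 1 array per group. Pcolce2 (0.69) lies beyond the right line and Mrc2 (-0.81), Itga1 (-0.79) and Itga10 (-0.69) beyond the left one.

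The collagen profile was set beside markers of the labelled cell type and of others. Of 15 chondrocyte markers, 5 of which are collagens described above, 8 were at or above the median signal, and 4 of these 8 are Col2a1, Col9a1, Col11a1 and Col11a2. The other 4 were Sox9, the cartilage master factor (3375 and 2577), Sox5 (229 and 252), Sox6 (208 and 338) and Acan, encoding aggrecan (176 and 293). Of the 8, Acan and Sox6 were at least 1.5-fold higher and none lower. Most of the 7 below the median were at least 1.5-fold lower. They were Matn1 (-0.89), Col10a1 (-1.06), Cnmd (-1.55), Hapln1 (-1.66), Comp (-2.16) and Snorc (-2.17), while Matn3 was at 0.10. Over all genes below the median signal, 28.1% were higher and 39.2% lower. Without its collagens the list summed to 4195 with PBS and 3535 after Nell-1, and with them to 6238 and 5823. Sox9 makes up most of the sum without collagens and was lower with Nell-1, while Sox5, Sox6 and Acan were higher, so the sum mainly follows Sox9. Of 10 mesenchymal markers 9 were at or above the median and none of these passed 1.5-fold. Col1a1, Col1a2 and Col3a1 are among them, and without these the list summed to 91220 with PBS and 81551 with Nell-1. Vim, encoding the intermediate filament protein of mesenchymal cells, measured 38947 and 34271, at -0.18. All 5 endothelial markers were below the median, where most genes pass 1.5-fold, and their sums were 219.5 and 96.0.

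Of other types, 2 of 3 measured osteoblast, 2 of 5 epithelial, 2 of 4 haematopoietic, 1 of 4 skeletal muscle and 2 of 3 measured adipocyte markers were at or above the median. The brightest of each list were Alpl, the alkaline phosphatase gene of mineralising cells (2706 and 3959, at 0.55), Epcam (466 and 370.2), Csf1r (248 and 192), Des (224 and 91.7) and Pparg (598 and 608). Des and Krt5 (102 and 61.0) were at least 1.5-fold lower, and Krt5 passed the filter only through the CHX+PBS array. Both had mean signals between the median and 200, where 22.3% of all genes were at least 1.5-fold lower. Summed signals on the CHX+PBS and CHX+Nell-1 arrays were 3635 and 5202 for osteoblast, 676 and 537 for epithelial, 324 and 324 for haematopoietic, 389 and 197 for skeletal muscle and 699 and 672 for adipocyte markers. In each of these sums the brightest gene of the list had the largest share. The part of these markers in the collagen values was not tested.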

How the data were processed

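RNA of 2 samples was hybridised to Affymetrix mouse arrays. The deposited values are linear intensities, MAS5 signals per probe set, made by the authors with Affymetrix Expression Console, per the submitters' processing notes (no versions named there). Both arrays have a 2% trimmed mean of 500.0. The number of arrays limits the precision. Of 45101 probe sets, 64 controls were set apart. GEO's platform annotation gave 34945 of the rest 1 symbol, 932 several and 9160 none; gene IDs of 34741 were found in RefSeq (GRCm38.p6) for current symbols. No collagen probe set had several symbols.

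Log2 ratios, counts past 1.5-fold and medians were computed with numpy 2.4.6 and pandas 2.3.3, and loess with statsmodels 0.14.6. Only the log2 ratio arithmetic and the 1.5-fold call were tried on simulated data, with separate code. The choice of probe sets, the scalings and the summaries of gene lists were not part of that trial. With 1 array per group no test was run. Members, lists and settings were chosen with earlier results of these data known. All collagens could be named. Of the handling list, genes past 1.5-fold at or above the median signal and the brightest 2 of each role were named; Fkbp7, P3h3, P4ha2 and Ddr2 were chosen after their values were seen. Of each marker list, the brightest gene and those past 1.5-fold at or above the median signal were named; Vim, Sox5 and the markers named as below the median were chosen after their values were seen. Alternatives covered the scaling, low signals, the signal filter, the probe set and the threshold.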

Additional observations from a re-analysis of the deposited data

How the results depend on the processing

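The median log2 ratio of the collagens at or above the median signal stayed below 0 under every alternative run, between -0.22 without a signal filter and -0.11 with median centring, and that of the collagen-handling genes lay between -0.05 and 0.02. Counts of genes past 1.5-fold moved most with the filter. Without it 4 collagens were higher and 10 lower, and at a mean signal of 200 or more both counts were 0. With the mean over probe sets 0 were higher. At 2-fold 0 collagens were higher, and with both arrays at or above the median signal, an alternative chosen after seeing the data, 1 was lower. Of the handling genes, 3 were higher and 5 lower without a filter, 1 was lower at 200 or more, and at 2-fold 0 were higher and 0 lower; with quantile normalization and with the constant added 2 were lower, without Itga10 (-0.58 in both). Of 186 values of single collagens under alternatives, 7 differed in sign from the signals as deposited, all for genes within 1.5-fold, and 5 crossed 1.5-fold, 4 of Col5a3 and 1 of Col22a1. The cause was not tested. Low signal limits the 15 collagens below the median. Leaving out a replicate was not possible with 1 array per group. No paired analysis was possible because each group has 1 array.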
